A study of Mus musculus with 9 samples.

Results

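A set of 9 genes of the TGF-beta system were followed in cardiac fibroblasts in which a heart transcription factor had been knocked down. They were chosen by name from the 38924 genes of the table. The set held the ligands Tgfb1, Tgfb2 and Tgfb3, the latency proteins Lrrc32 and Ltbp1 with the related Ltbp2, and the receptors Tgfbr1, Tgfbr2 and Tgfbr3. All 9 were found and all 9 passed the filter on low counts in every comparison. The set was proposed because Lrrc32 was high in the Gata4 knockdown, so values of all 9 genes in Gata4 KD against control are given as a description, without a test.

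RNA was sequenced from primary fibroblasts of adult hearts, taken from mice of 8 to 10 weeks on a C57BL/6 background that carry a Cas9 and EGFP transgene (RosaCas9-EGFP). All groups therefore expressed Cas9. Cells were grown for 3 days, sorted as CD45-CD31-CD90+, which keeps a fibroblast surface marker and removes blood and endothelial cells, and replated at 10000 cells per cm2. After 6 days, at 80 to 90% confluency, they were transfected with scrambled guide RNAs (control), with 2 guides against Gata4 (Gata4 KD) or with 2 guides against Tbx20 (Tbx20 KD), and each group had 3 libraries, a, b and c. Cas9 cuts DNA at the guide's target, and the share of edited cells in a library is not analysed here. The labels name no animal or culture for a library, and p-values measure only the spread between these libraries. In such bulk samples, fewer cells of a type and less RNA per cell cannot be told apart.

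TGF-beta is made as a precursor whose propeptide stays wrapped around the ligand and keeps it inactive. Latent TGF-beta binding proteins, of which Ltbp1 is the best known, tie this complex to the extracellular matrix. GARP, the product of Lrrc32, holds it at the cell surface instead and is best known from regulatory T cells and platelets. Integrins and proteases free the ligand, which then binds the type II receptor Tgfbr2. Tgfbr2 recruits and phosphorylates the type I receptor Tgfbr1, and that kinase passes the signal to Smad2 and Smad3. In the heart the pathway is known for turning fibroblasts into contractile, matrix-producing myofibroblasts.

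The sequences that set up the comparison are the guides, shown because they define the knockdown groups. They are written 5′ to 3′ with the genomic PAM in capitals. All 4 targeting guides matched coding exons in GRCm38, and the coordinates cover the guide without its PAM. The guides against Gata4 matched chr14:63204711-63204730 on the minus strand, in exon 3 of 7 of Gata4-201, and chr14:63240581-63240600 on the plus strand, in exon 2. Those against Tbx20 matched chr9:24770708-24770727 on the minus strand, in exon 2 of 8 of Tbx20-201, and chr9:24765732-24765751 on the plus strand, in exon 4. The 2 scrambled guides, printed without a PAM, matched no transcript.
Gata4_sgRNA1: cagagagtgtgtcaattgtgGGG
Gata4_sgRNA3: gcaggactgggctgtcgaagGGG
Tbx20_sgRNA2: caaattccatgaactgggcaCGG
Tbx20_sgRNA3: gagctgctcgccagtaaaggGGG
NTC_sgRNA1: gcgaggtattcggctccgcg
NTC_sgRNA2: gctttcacggaggttcgacg

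The 3 ligands are close relatives, and their reads could in principle be confused. The last 75 coding bases of each, ahead of the stop codon and within the mature ligand, are shown for that reason, with bases identical in all 3 in capitals. They lie in GRCm38 at chr7:25704865-25704939 on the plus strand (Tgfb1), chr1:186625451-186625525 on the minus strand (Tgfb2) and chr12:86057783-86057857 on the minus strand (Tgfb3).
Tgfb1: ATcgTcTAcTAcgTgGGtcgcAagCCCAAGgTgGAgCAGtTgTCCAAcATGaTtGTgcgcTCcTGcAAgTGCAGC
Tgfb2: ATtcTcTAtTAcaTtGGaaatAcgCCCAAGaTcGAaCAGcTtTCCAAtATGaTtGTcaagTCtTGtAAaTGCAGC
Tgfb3: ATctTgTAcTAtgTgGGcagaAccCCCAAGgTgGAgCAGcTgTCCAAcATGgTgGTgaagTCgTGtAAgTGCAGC

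Of these 75 bases, 47 (62.7%) were shared by all 3 ligands. Tgfb1 and Tgfb3 were the closest pair at 78.7% identity, against 72.0% for Tgfb2 and Tgfb3 and 69.3% for Tgfb1 and Tgfb2. Across the whole transcripts, no window of 75 bases, the length of a read, was shared between a ligand and any other gene. The same held for Lrrc32, Ltbp2, Tgfbr1 and Tgfbr2, whereas 3.48% of the windows of Tgfbr3 also occurred in Gm43422 and 0.176% of those of Ltbp1 in other genes. Ltbp1 also overlaps Gm6276 on its own strand, so reads there could be divided between them.

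Libraries held 31214828 to 41950397 counts, and the 9 genes received at least 595 counts in every library. Gata4 averaged 162 ± 6.83 CPM (counts scaled to a common library total, mean ± SD, n = 3) in control, 55.4 ± 9.48 CPM in Gata4 KD and 189 ± 10.4 CPM in Tbx20 KD, and fell by 1.55 on the log2 scale in Gata4 KD against control (edgeR quasi-likelihood test, adjusted p = 0.00272). Tbx20 averaged 1002 ± 278 CPM in control and 391 ± 61.8 CPM in Tbx20 KD. All Tbx20 KD libraries lay below all controls for Tbx20, but the log2 fold change of -1.35 had an adjusted p of 0.748. Tbx20 was also at 698 ± 199 CPM in Gata4 KD. Controls b and c stood farthest from the rest of their group, and Gata4 KD c was the farthest of its own. All 8 fibroblast markers reached 1 CPM, with a summed level of 6510 to 10100 CPM over the 9 libraries. Leukocyte markers summed to 15.3 to 28.5 CPM with Cd3e at 0, endothelial markers to 41.5 to 61.3 CPM, mural cell markers to 284 to 529 CPM, most of it Pdgfrb, and cardiomyocyte markers to 0.719 to 1.84 CPM with Nppa at 0.

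Per length of exon, Lrrc32 was the highest of the 9 genes in control fibroblasts, at 63.9 ± 0.50 CPM per kb (SD, n = 3). Tgfb3 followed at 41.7 ± 3.95 CPM per kb and Ltbp1 at 39.1 ± 2.75 CPM per kb, and the ranges of these neighbours overlapped. Tgfbr2 (15.9 ± 1.58 CPM per kb) and Ltbp2 (12.8 ± 2.87 CPM per kb) formed the next overlapping pair. Tgfbr1 was at 8.65 ± 2.52 CPM per kb and overlapped both Ltbp2 above it and Tgfb2 below it. Tgfb2 was at 6.58 ± 1.15, Tgfb1 at 4.36 ± 0.50 and Tgfbr3 at 3.17 ± 0.39 CPM per kb, and these last 3 did not overlap one another in control. A matrix-bound and a surface-bound latency protein thus both had more RNA per length than any of the receptors, and the ligand at the highest level was Tgfb3, not Tgfb1.

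**Figure D1:**
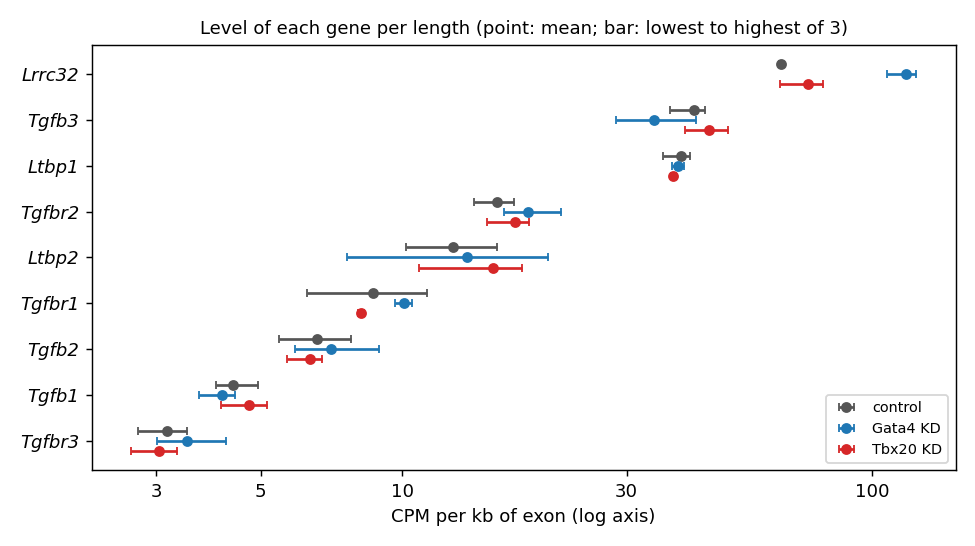
Level of each of the 9 genes in CPM per kb of exon (log axis) in control, Gata4 KD and Tbx20 KD, as the mean (point) and the lowest to highest of 3 libraries (bar, hidden where shorter than the point). Lrrc32 is at the top in every group, and the Gata4 KD point for Lrrc32, at 118 CPM per kb, lies apart from the other 2 groups.

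Lrrc32 lies at chr7:98489283-98502181 on the plus strand (ENSMUSG00000090958). In control it was at 302, 299 and 297 CPM in replicates a, b and c. The 3 controls were thus nearly equal. In Gata4 KD it was at 573, 502 and 581 CPM, so every Gata4 KD library lay above every control and every Tbx20 KD library. In Tbx20 KD it was at 298, 361 and 367 CPM, with replicate a among the controls and b and c above them. The fitted log2 fold change in Gata4 KD against control was 0.88 (SE 0.084, 95% interval 0.69 to 1.08), or 1.84-fold, and no test is given because this difference chose the set. Of the 14468 genes tested, 0.885% had a log2 fold change at or above that of Lrrc32. This high place was given by the choice of the set and is not a result. Against Tbx20 KD, which uses the same Gata4 KD libraries, the difference was 0.69 (SE 0.096, 95% interval 0.47 to 0.92), again as a description. Leaving out any 1 library kept the value between 0.87 and 0.95 against control and between 0.60 and 0.76 against Tbx20 KD.

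In the comparison that did not choose it, Tbx20 KD against control, Lrrc32 differed by 0.20 on the log2 scale (95% interval -0.01 to 0.41) and did not pass the test (edgeR, adjusted p = 1.0). Since GARP is best known from regulatory T cells and platelets, the markers of both were measured. Regulatory T cell markers summed to 7.54 to 10.4 CPM in control, 11.1 to 13.1 CPM in Gata4 KD and 7.74 to 8.32 CPM in Tbx20 KD, so this sum also set Gata4 KD apart. Only Il2ra and Ikzf2, 2 of 5, reached 1 CPM in any library, while the defining markers Foxp3 (0.0277 to 0.0904 CPM), Cd4 (at most 0.0553 CPM) and Ctla4 (at most 0.0602 CPM) were near 0. Platelet and megakaryocyte markers summed to 7.33 to 10.5 CPM in control, 9.16 to 10.6 CPM in Gata4 KD and 7.52 to 8.55 CPM in Tbx20 KD. Gp6 was at 0 and Gp9 at most 0.0272 CPM. The 3 of 6 that reached 1 CPM were Pf4 (5.39 to 8.17 CPM over the 9 libraries), Itga2b (1.0 to 1.93 CPM) and Gp1bb (0.364 to 1.05 CPM). The sum of epicardial markers went in the opposite direction to Lrrc32. It was 25.5 to 49.2 CPM in control, 9.43 to 17.1 CPM in Gata4 KD and 27.1 to 44.0 CPM in Tbx20 KD, and 5 of 6 reached 1 CPM. Lrrn4 (2.09 to 32.5 CPM over the 9 libraries) had the most counts, followed by Krt19 (2.48 to 11.9 CPM). Wt1 reached at most 1.14 CPM and Msln at most 0.326 CPM. The part of epicardial markers in the Lrrc32 values was not tested.

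The LTBP family genes of the set did not set Gata4 KD apart. Ltbp1 (chr17:75005568-75392512, plus strand, ENSMUSG00000001870) was at 384, 437 and 432 CPM in control, 412, 425 and 400 CPM in Gata4 KD and 398, 400 and 408 CPM in Tbx20 KD. All groups overlapped, and the intervals were narrow: -0.02 (95% interval -0.21 to 0.17) in Gata4 KD and -0.04 (-0.22 to 0.14) in Tbx20 KD, both as log2 fold change against control. Ltbp2 (chr12:84783212-84876532, minus strand, ENSMUSG00000002020), an LTBP family protein of elastic fibers that does not itself bind latent TGF-beta, was at 102, 130 and 83.2 CPM in control, 108, 62.3 and 167 CPM in Gata4 KD and 89.0, 147 and 146 CPM in Tbx20 KD. It varied more between libraries of a group than between groups, and its log2 fold change of 0.10 in Gata4 KD had an interval of -0.62 to 0.82. A change of Ltbp2 as large as that of Lrrc32 would lie just outside this interval, so 3 libraries a group gave little precision for it.

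**Figure D2:**
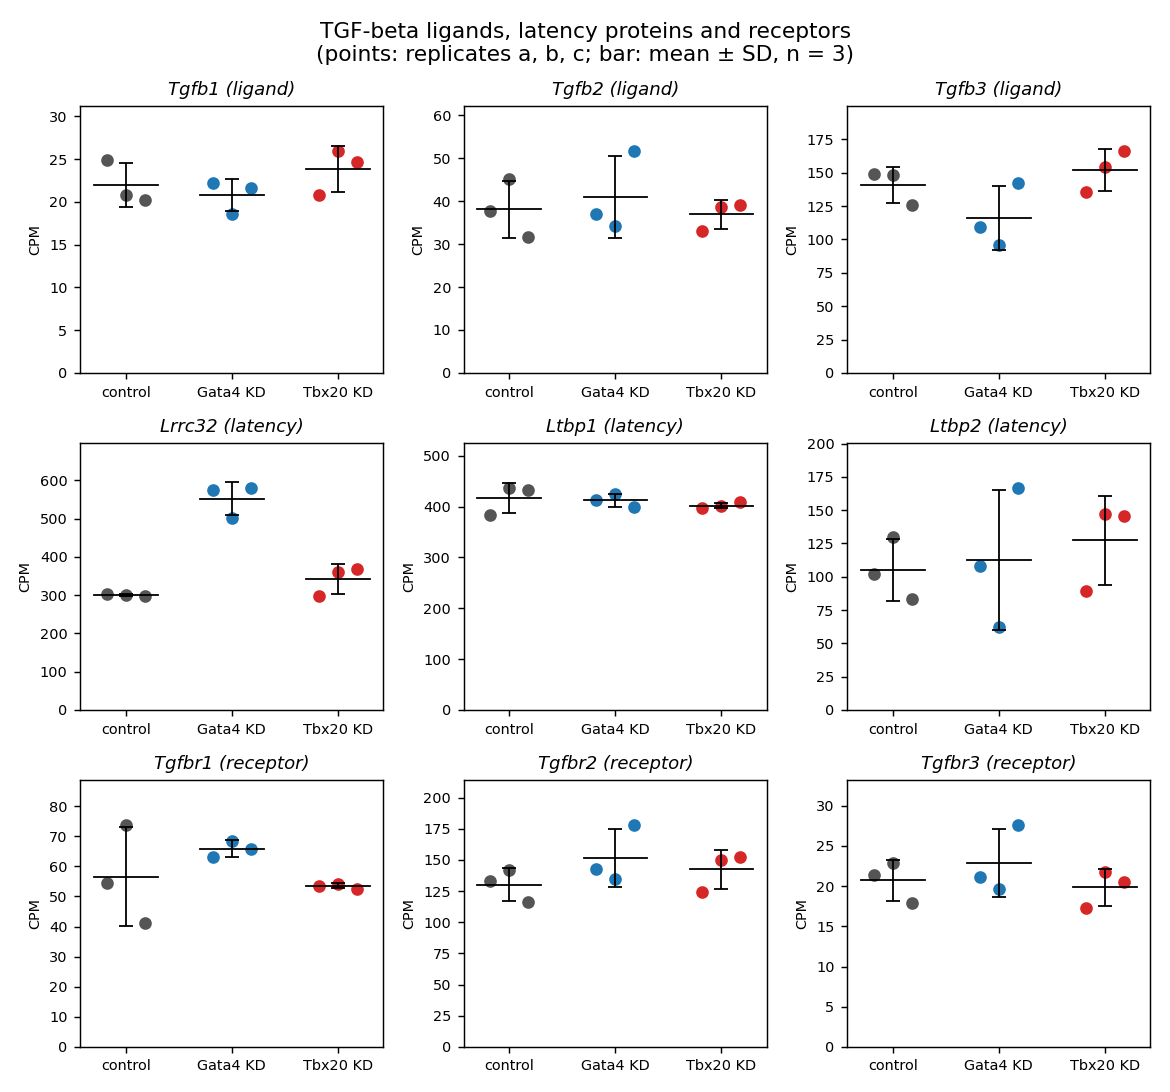
CPM of each gene in every library (points, replicates a, b and c from left to right) with the mean and SD of the 3 libraries (n = 3) in control, Gata4 KD and Tbx20 KD; axes start at 0 and differ between panels. Lrrc32 is at 502 to 581 CPM in Gata4 KD against 297 to 367 CPM in the other 6 libraries, while the groups of the other genes overlap control.

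Among the ligands, Tgfb3 was the most abundant and the one with the lowest mean in Gata4 KD relative to control. Tgfb3 (chr12:86056745-86079041, minus strand, ENSMUSG00000021253) was at 149, 148 and 126 CPM in control, 110, 96.2 and 142 CPM in Gata4 KD and 135, 154 and 166 CPM in Tbx20 KD. Gata4 KD a and b lay below all other libraries, but c lay among the controls, and the log2 fold change against control was -0.28 (95% interval -0.61 to 0.05). Against Tbx20 KD it was -0.39 (95% interval -0.73 to -0.05), which did not pass the test across all genes (edgeR, adjusted p = 0.235). That outcome depended on 1 library, since without Gata4 KD c the difference was -0.57 with an adjusted p of 0.0233 (edgeR). The same fit called 801 genes in all, in place of 208, so the shift was not particular to Tgfb3. In Tbx20 KD against control Tgfb3 differed by 0.12 (-0.12 to 0.36).

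Tgfb1, the ligand most often studied in fibrosis (chr7:25687002-25705077, plus strand, ENSMUSG00000002603), was at 24.9, 20.8 and 20.2 CPM in control, 22.2, 18.6 and 21.6 CPM in Gata4 KD and 20.8, 26.0 and 24.7 CPM in Tbx20 KD. The groups overlapped in every pairing. Its log2 fold change was -0.08 (-0.34 to 0.19) in Gata4 KD and 0.13 (-0.14 to 0.39) in Tbx20 KD against control, and -0.19 (-0.44 to 0.05) between the knockdowns. Tgfb2 (chr1:186622792-186705989, minus strand, ENSMUSG00000039239), which acts in heart valve and septum formation in the embryo, was at 37.6, 45.0 and 31.7 CPM in control, 36.9, 34.2 and 51.7 CPM in Gata4 KD and 33.0, 38.6 and 39.1 CPM in Tbx20 KD. Gata4 KD c was the highest of the 9 libraries, and the log2 fold change was 0.10 (-0.31 to 0.51) in Gata4 KD and -0.04 (-0.35 to 0.27) in Tbx20 KD.

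Taken as shares of ligand transcripts per length, Tgfb3 made up 79.2% ± 0.52 (SD, n = 3) in control, 80.2% ± 0.72 in Tbx20 KD and 75.3% ± 0.73 in Gata4 KD. The Gata4 KD libraries, at 74.8 to 76.1%, lay below the controls, at 78.7 to 79.6%, although the level of Tgfb3 itself overlapped. The share of Tgfb2 was 12.5% ± 1.29 in control, 15.5% ± 0.69 in Gata4 KD and 11.4% ± 0.26 in Tbx20 KD, and that of Tgfb1 stayed at 7.4 to 10.2% in all libraries. These shares in Gata4 KD against control belong to the comparison that chose the set and carry no test.

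Among the receptors, Tgfbr1 rose in Gata4 KD against Tbx20 KD, while its intervals against control spanned 0. Tgfbr1 (chr4:47353222-47414931, plus strand, ENSMUSG00000007613) was at 54.6, 73.9 and 41.0 CPM in control, 63.0, 68.6 and 65.9 CPM in Gata4 KD and 53.6, 54.3 and 52.6 CPM in Tbx20 KD. The knockdown groups were tight and did not overlap each other, whereas the controls spanned both. The log2 fold change between the knockdowns was 0.30 (SE 0.050, 95% interval 0.18 to 0.42), or 1.23-fold, with an adjusted p of 0.0406 (edgeR). The call was lost when all 9 libraries were fitted together (adjusted p = 0.52) and with library size in place of TMM scaling (0.0747). It was also lost with the replicate letter as a block (0.0799), and on leaving out any library except Gata4 KD c (0.096 to 0.214). Against control the difference was 0.22 (-0.20 to 0.64) in Gata4 KD and -0.07 (-0.49 to 0.35) in Tbx20 KD, and without control b the Tbx20 KD value turned to 0.18.

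Tgfbr2, the ligand-binding receptor (chr9:116084293-116175360, minus strand, ENSMUSG00000032440), was at 133, 142 and 116 CPM in control, 142, 135 and 178 CPM in Gata4 KD and 124, 150 and 152 CPM in Tbx20 KD. Its groups overlapped, with log2 fold changes of 0.22 (-0.06 to 0.51) in Gata4 KD and 0.14 (-0.11 to 0.39) in Tbx20 KD. Tgfbr3, or betaglycan, a coreceptor known for presenting Tgfb2 to Tgfbr2 (chr5:107106570-107289629, minus strand, ENSMUSG00000029287), was at 21.4, 22.9 and 17.9 CPM in control, 21.2, 19.7 and 27.7 CPM in Gata4 KD and 17.3, 21.8 and 20.6 CPM in Tbx20 KD. Only Gata4 KD c exceeded all controls. The log2 fold changes of Tgfbr3 were 0.14 (-0.20 to 0.48) and -0.05 (-0.34 to 0.24). Per length, Tgfbr2 made up 53.9 to 62.5% of the 3 receptor transcripts, Tgfbr1 27.0 to 35.2% and Tgfbr3 10.1 to 11.8%, with overlapping groups for each.

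**Figure D3:**
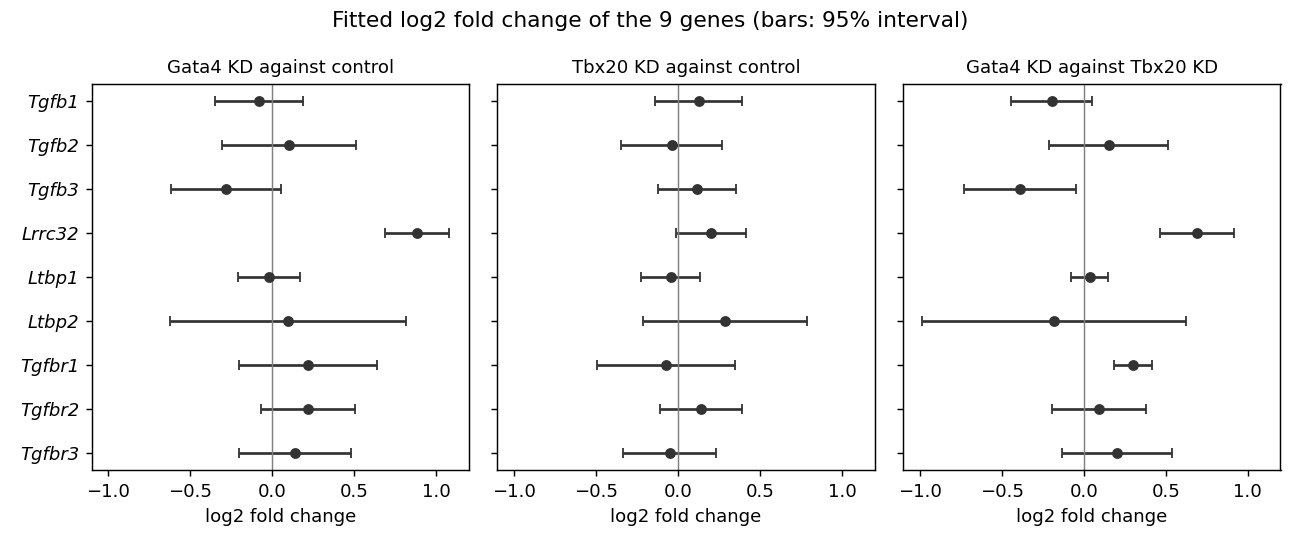
Fitted log2 fold change of the 9 genes (points) with its 95% interval (bars) in Gata4 KD against control, Tbx20 KD against control and Gata4 KD against Tbx20 KD, 3 libraries a group. Lrrc32 lies at 0.88 in the first panel and 0.69 in the third, and every other interval in the first 2 panels includes 0.

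Read over all 9 genes, 1 of 9 (Lrrc32) was called in Gata4 KD against control, beside 0.38% of the 14468 genes tested, and nothing is read from that count since the comparison chose the set. Lrrc32 was also the only one whose libraries did not overlap there, beside 13.8% of all genes. None of 9 was called in Tbx20 KD against control, beside 0.00687% of 14547 genes. None reached an unadjusted p under 0.05 there either, against 2.69% of all genes, and limma-voom and DESeq2 called 0 of 9 as well. The libraries of all 9 overlapped, where those of 6.74% of all genes did not. Between the knockdowns 1 of the 8 genes other than Lrrc32 was called, Tgfbr1, beside 1.44% of 14477 genes, and it was the only one of these 8 whose libraries did not overlap, beside 23.0% of all genes. Lrrc32 is left out of that count, since the Gata4 KD libraries that chose the set enter this comparison too. The median log2 fold change of the 9 genes was 0.10, 0.12 and 0.09 in the 3 comparisons, and that of all genes was -0.017, -0.0022 and -0.0063. Both comparisons with control share the control libraries, and both comparisons of Gata4 KD share its libraries, so the columns of values are not independent.

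Across the 9 libraries, which share 3 groups and therefore any group difference, the gene most like Lrrc32 in log2 CPM was Hgf, hepatocyte growth factor (Pearson r = 0.98, 10062 genes searched). Hgf averaged 20.0 CPM in control, 66.2 CPM in Gata4 KD and 28.8 CPM in Tbx20 KD. Next came Sptlc2, a subunit of the enzyme that starts sphingolipid synthesis (r = 0.96), at 166, 187 and 172 CPM. Dio2, which activates thyroid hormone (r = 0.957), averaged 6.01 CPM in control, 79.4 CPM in Gata4 KD and 7.19 CPM in Tbx20 KD. All 3 had their highest mean in Gata4 KD, with differences between groups that ranged widely. The ligand Tgfb3 was most like Fndc1 (r = 0.987, 172, 116 and 218 CPM in control, Gata4 KD and Tbx20 KD), B3gnt9 and Notch3 (both r = 0.985).

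For the other 7 genes the closest match had an r between 0.918 and 0.99. Tgfbr2 was closest to Osmr, the oncostatin M receptor (r = 0.989, 209, 257 and 233 CPM in the 3 groups), and Ltbp2 to P4ha3, a collagen prolyl hydroxylase subunit (r = 0.99). Tgfbr1 was closest to Ttbk2 (r = 0.982), Tgfb2 to Kat6b (r = 0.974), Tgfb1 to Etfdh (r = 0.961), Tgfbr3 to Timp3 (r = 0.947) and Ltbp1 to Sept6 (r = 0.918). Among the 9 genes themselves, Tgfb2 and its coreceptor Tgfbr3 were the closest pair (r = 0.954), followed by Tgfbr2 and Tgfbr3 (0.893) and Tgfb2 and Tgfbr2 (0.877). Lrrc32 and Tgfb3 had an r of -0.494. These are descriptions over 9 libraries, where Gata4 KD c was high for Tgfb2, Tgfbr2 and Tgfbr3 alike.

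Other genes of the pathway were taken from 4 lists with 86 members, of which 83 could be tested (Mmp9, Tgfbr3l and Cilp were too low). None was called in Gata4 KD against control by edgeR, beside the 0.38% of all genes, although 16 had an unadjusted p under 0.05 (beside 8.54% of all genes), DESeq2 called 5 (Bambi, Cnn1, Il11, Loxl2 and Plau) among 273 genes in all, and edgeR called 2 among 81 without Gata4 KD c. None was called in Tbx20 KD against control by edgeR or DESeq2, and 3 had an unadjusted p under 0.05, beside 2.69% of all genes. Between the knockdowns edgeR called 3 of 83, beside 1.44% of all genes: Il11 rose and Bambi and Cd109 fell in Gata4 KD against Tbx20 KD. At an unadjusted p under 0.05 there were 24, beside 16.7% of all genes. DESeq2 called 13 among 761 genes in all. The edgeR count was 17 among 801 genes without Gata4 KD c, and 0 without Gata4 KD a, Tbx20 KD b or Tbx20 KD c, where 22, 28 and 27 genes were called in all.

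The 2 called coreceptor genes both restrain the pathway. Bambi, a pseudoreceptor without a kinase domain, was at 15.0, 12.7 and 16.7 CPM in control, 10.4, 9.63 and 11.2 CPM in Gata4 KD and 15.5, 15.5 and 15.1 CPM in Tbx20 KD. Every Gata4 KD library lay below all 6 others. Its log2 fold change was -0.56 (SE 0.077, 95% interval -0.74 to -0.38) against Tbx20 KD, with an adjusted p of 0.0225 (edgeR), and -0.51 (-0.80 to -0.21) against control, with an adjusted p of 0.212. Cd109, a surface protein that binds TGF-beta and promotes removal of its receptors, was at 86.4, 92.4 and 76.5 CPM in control, 68.6, 62.4 and 67.4 CPM in Gata4 KD and 89.8, 85.0 and 85.1 CPM in Tbx20 KD. Gata4 KD again lay below all other libraries, by -0.39 on the log2 scale (-0.52 to -0.26, edgeR adjusted p = 0.0233) against Tbx20 KD and by -0.36 (-0.57 to -0.15, adjusted p = 0.212) against control. Without any 1 library other than Gata4 KD c, the adjusted p between the knockdowns was 0.06 to 0.133 for Bambi and 0.0641 to 0.122 for Cd109.

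The remaining genes of that list of 10 did not pass the test in any comparison. The matrix proteoglycans Bgn (3614 ± 201 CPM in control) and Dcn (149 ± 38.8 CPM), which bind TGF-beta, differed from control in Gata4 KD by 0.06 (-0.29 to 0.41) and -0.14 (-0.78 to 0.50). Fmod, a related proteoglycan, ranged from 1.87 to 11.7 CPM within Gata4 KD alone, so its log2 fold change of -0.69 had an interval of -2.02 to 0.63. Eng, a coreceptor of endothelial cells and fibroblasts, was at 578 ± 35.4 CPM in control and differed by 0.09 (-0.14 to 0.31). The list's median log2 fold change was -0.14 in Gata4 KD against control, 0.05 in Tbx20 KD against control and -0.23 between the knockdowns, beside -0.017, -0.0022 and -0.0063 for all genes.

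Among the 34 target genes, Il11, a cytokine induced by TGF-beta in fibroblasts, showed the largest difference. It was at 4.60, 2.43 and 4.64 CPM in control, 16.0, 17.3 and 9.27 CPM in Gata4 KD and 3.05, 1.79 and 1.71 CPM in Tbx20 KD. All Gata4 KD libraries were above all others, with c the lowest of the 3. The log2 fold change was 2.68 (SE 0.31, 95% interval 1.97 to 3.40), or 6.42-fold, against Tbx20 KD (edgeR, adjusted p = 0.0115) and 1.86 (1.18 to 2.55) against control, where the adjusted p of 0.0519 just missed the threshold. Without Gata4 KD a, Tbx20 KD b or Tbx20 KD c the first call was lost (adjusted p 0.0801 to 0.0911). The second passed in edgeR fits that scaled by library size (0.0447), used no filter (0.0044) or took all 9 libraries (0.0248), and with DESeq2 (2.302e-08). It also passed in edgeR without control b (0.0413) or Gata4 KD c (0.0289). It missed in edgeR with the filter of CPM above 1 in 2 libraries (0.0546) or the replicate block (0.302), and in limma-voom (0.0768). It also missed in edgeR without control a, control c, Gata4 KD a or Gata4 KD b (0.1175 to 0.2637). Il11 was singled out by the study from these same libraries and is not independent evidence about the list.

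Genes that mark the contractile and matrix responses to TGF-beta differed in sign in Gata4 KD against control, and edgeR called none of them. Of the 33 tested target genes, 9 had an unadjusted p under 0.05 (edgeR, 5 higher and 4 lower), beside 8.54% of all genes. The contractile genes Acta2 and Tagln differed by 0.11 and 0.29. The matrix genes Fn1, Col1a1 and Postn differed by 0.23, -0.35 and -0.35. For all of these the edgeR adjusted p was 0.423 to 0.848. DESeq2 called Tagln between the knockdowns. Cnn1, calponin of contractile fibers, was at 8.51, 6.16 and 8.37 CPM in control and 14.1, 11.6 and 11.0 CPM in Gata4 KD, without overlap. Its log2 fold change of 0.67 (0.30 to 1.04) did not pass the test (edgeR, adjusted p = 0.190), though DESeq2 called it. The 0.90 (0.51 to 1.28) between the knockdowns just missed the threshold (edgeR, adjusted p = 0.0524). That difference passed with other filters, the replicate block, DESeq2 or all 9 libraries in one fit, and without Gata4 KD c or Tbx20 KD a. It did not pass with library size scaling or limma-voom, nor without any other library. Nox4, an oxidase induced by TGF-beta, was at 17.3 ± 4.27 CPM in control and 24.2 ± 3.08 CPM in Gata4 KD (0.49, adjusted p = 0.466). The fibrillar collagen Col3a1 had the opposite sign, at 3170 ± 453 CPM in control and 2219 ± 861 CPM in Gata4 KD (-0.51, adjusted p = 0.640), and so did the collagen crosslinking enzyme Loxl2 (-0.56, adjusted p = 0.279). Loxl2 is uncertain, since 43.6% of its windows also occur in other genes. Igfbp3 was at 4.90 ± 0.69 CPM in control, 3.77 ± 0.42 CPM in Gata4 KD and 6.85 ± 1.19 CPM in Tbx20 KD, a difference of -0.86 between the knockdowns (-1.23 to -0.49, edgeR adjusted p = 0.0527). This difference passed without a filter, with DESeq2 or all 9 libraries in one fit, and without Gata4 KD c or Tbx20 KD a. It did not pass with library size scaling, the CPM filter, limma-voom or the replicate block, nor without any other library. Timp1, an inhibitor of matrix metalloproteinases named for its high level per length (711 ± 57.6 CPM in control), differed by 0.01 (-0.32 to 0.34) in Gata4 KD. The median of the list was 0.05, -0.0088 and 0.10 in the 3 comparisons.

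**Figure D4:**
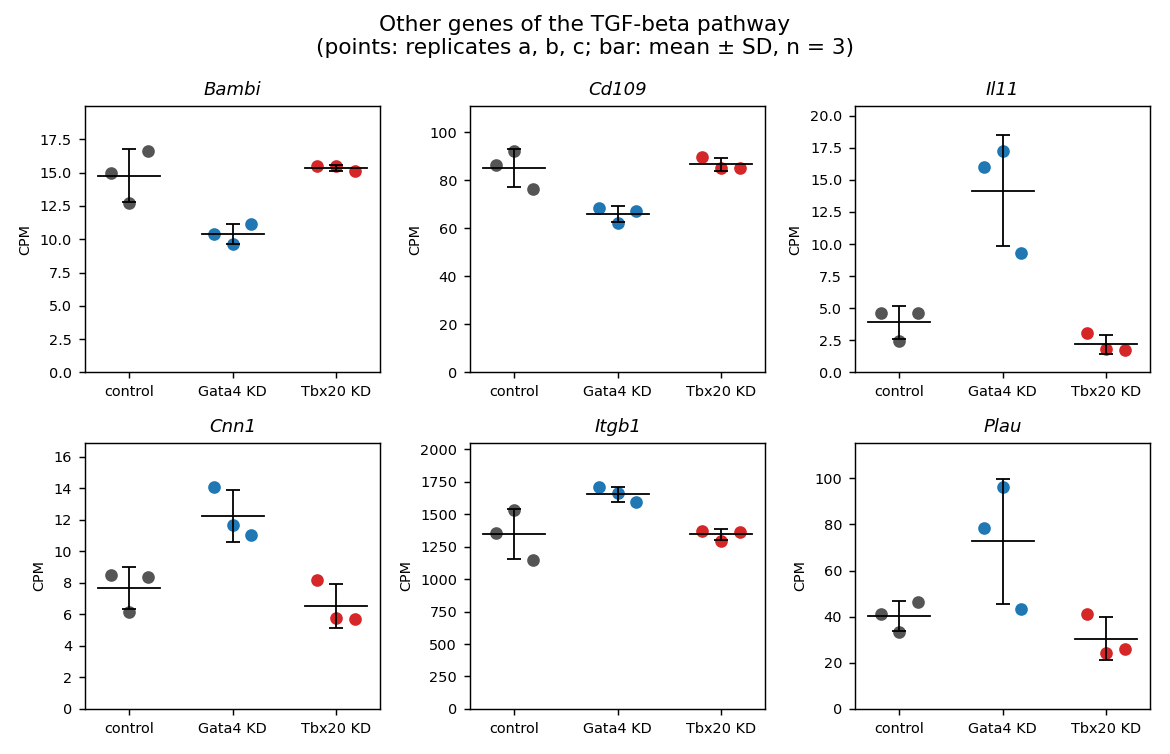
CPM of 6 other genes of the pathway in every library (points, replicates a, b and c from left to right) with the mean and SD of the 3 libraries (n = 3); axes start at 0 and differ between panels. Bambi and Cd109 are lowest and Il11, Cnn1 and Itgb1 highest in all 3 Gata4 KD libraries, while Gata4 KD c of Plau, at 43.1 CPM, lies among the controls.

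None of the 20 tested genes that store or release latent TGF-beta was called in any comparison by the main edgeR fit. DESeq2 called Plau in Gata4 KD against control, and Itgb1, Plau and Thbs1 between the knockdowns. In the latter comparison 8 of 20 had an unadjusted p under 0.05, beside 16.7% of all genes. The Gata4 KD libraries of 7 lay all above Tbx20 KD and those of 1 all below, beside 23.0% of all genes without overlap. Plau, urokinase, which activates plasmin, was at 41.2, 33.5 and 46.4 CPM in control, 78.6, 96.2 and 43.1 CPM in Gata4 KD and 41.1, 24.2 and 26.2 CPM in Tbx20 KD. Gata4 KD c lay among the controls but above all Tbx20 KD libraries, and the log2 fold change was 0.85 (0.25 to 1.44) against control (edgeR, adjusted p = 0.350) and 1.25 (0.52 to 1.98) against Tbx20 KD (0.110). Itgb1, the integrin beta 1 chain, was at 1354, 1536 and 1150 CPM in control, 1710, 1661 and 1596 CPM in Gata4 KD and 1374, 1293 and 1367 CPM in Tbx20 KD. Its libraries did not overlap, but the differences of 0.30 (0.04 to 0.55) and 0.30 (0.17 to 0.43) had adjusted p of 0.482 and 0.0527. Thbs1, thrombospondin 1, an activator of the latent complex and the most abundant of the list per length, was at 7784 ± 305 CPM in control, 8465 ± 604 CPM in Gata4 KD and 6658 ± 947 CPM in Tbx20 KD. Its log2 fold change between the knockdowns was 0.35 (0.09 to 0.61), without overlap of libraries (edgeR, adjusted p = 0.1855). Itgb3, a partner chain of the integrins that open the latent complex, was at 41.4 ± 4.72, 41.3 ± 4.02 and 34.0 ± 2.11 CPM in the 3 groups, with -0.27 (-0.51 to -0.04) in Tbx20 KD against control (adjusted p = 1.0). Ltbp4 and the crosslinking enzyme Tgm2 had log2 fold changes of -0.38 (-0.98 to 0.21) and -0.31 (-0.65 to 0.03) in Gata4 KD against control. The median of the list was 0.0036, 0.0085 and 0.064.

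Inside the cell, none of 21 genes was called in any comparison by the main edgeR fit, and the differences were small. DESeq2 called Skil, Smad6, Smurf2 and Usp9x between the knockdowns. In that comparison 6 of 21 had an unadjusted p under 0.05, beside 16.7% of all genes. The Gata4 KD libraries of 7 lay all above Tbx20 KD and those of 2 all below, beside 23.0% of all genes without overlap. In Gata4 KD against control the list ranged from -0.36 to 0.32 on the log2 scale, in Tbx20 KD against control from -0.08 to 0.12 and between the knockdowns from -0.38 to 0.27. The ends in Gata4 KD against control were held by Smad6, an inhibitory Smad (44.7 ± 7.90 CPM in control and 34.8 ± 4.72 CPM in Gata4 KD, edgeR adjusted p = 0.548), and Smurf2, a ubiquitin ligase that targets the receptors (176 ± 25.4 and 220 ± 15.3 CPM, adjusted p = 0.463). Between the knockdowns, Skil, a repressor of Smad complexes, differed by 0.27 (0.15 to 0.40) with an adjusted p of 0.0533, and the related Ski by -0.0033 (-0.20 to 0.19). Usp9x, a deubiquitinase of Smad4 that shares 5.19% of its windows with other genes, differed by 0.22 (0.09 to 0.35, adjusted p = 0.110). The most abundant genes per length were Fkbp1a, which binds Tgfbr1 (339 ± 7.15 CPM in control), and Strap, which binds the receptors with Smad7 (186 ± 13.3 CPM). Fkbp1a differed by -0.05 (-0.23 to 0.12) and Strap by 0.01 (-0.20 to 0.22) in Gata4 KD against control. The feedback inhibitor Pmepa1 differed by 0.08 (-0.28 to 0.44) in Gata4 KD and 0.11 (-0.25 to 0.48) in Tbx20 KD, and the list medians were 0.08, 0.02 and 0.06.

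**Figure D5:**
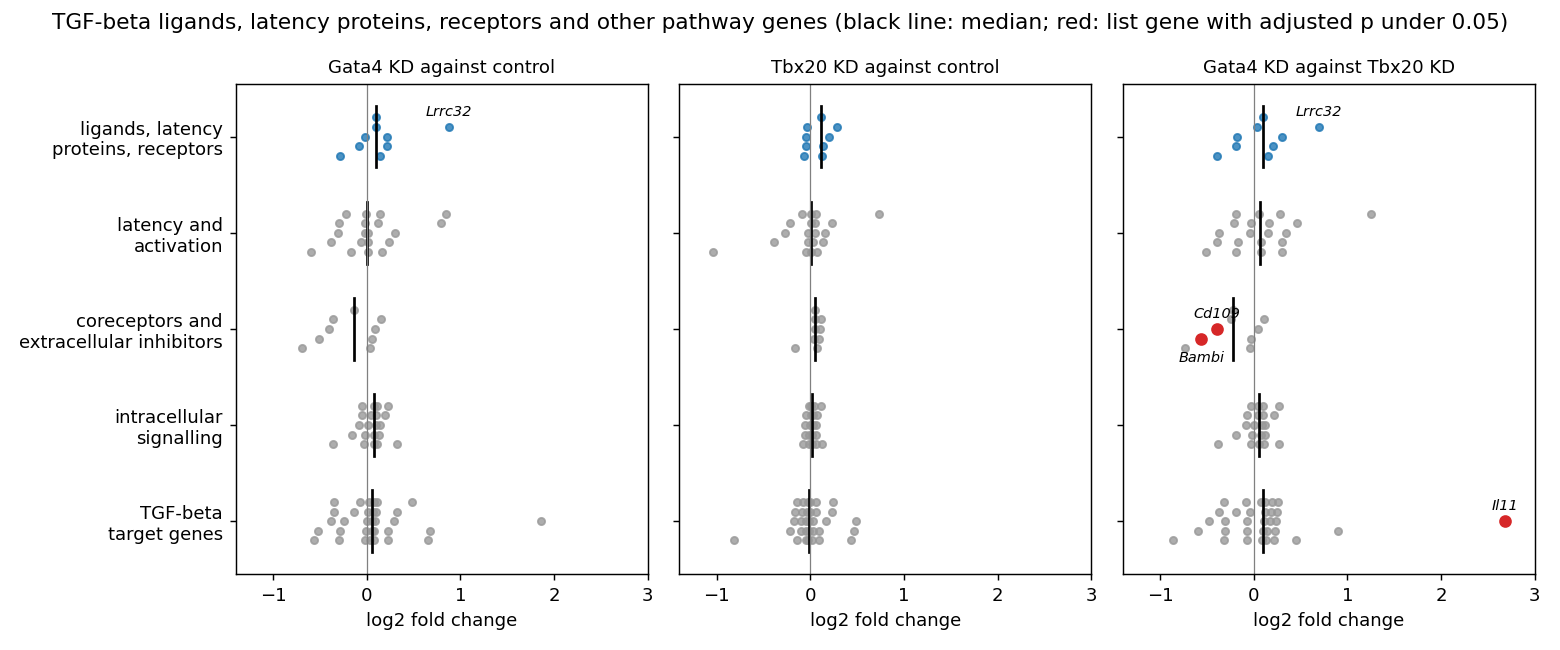
Fitted log2 fold change of the 9 genes (blue) and of the tested genes of each of the 4 other lists (gray), with the list median (black line), in the 3 comparisons; red points are list genes with an adjusted p under 0.05 (edgeR), and Lrrc32 is named where it exceeds 0.5. Most points lie within 0.5 of 0, and only Il11 (2.68), Bambi (-0.56) and Cd109 (-0.39), all in Gata4 KD against Tbx20 KD, are red.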

How the data were processed

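Messenger RNA libraries were read as single-end 75 base reads. The authors filtered reads on quality and ran RSEM, with Bowtie2 as its aligner and strand taken into account, to obtain expected counts for each gene, which were deposited as whole numbers without normalization. RSEM divides a read that matches several genes among them. The study's methods name GRCm38 and the submitters' processing notes mm9. Symbols, positions and exon lengths were taken here from GENCODE M21 on GRCm38, which named 37607 of the 38924 gene IDs.

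Each comparison was fitted on its 6 libraries with edgeR 4.0.16 (R 4.3.3) by filterByExpr, TMM scaling and the quasi-likelihood F test, with Benjamini-Hochberg adjustment over all genes tested and a threshold of 0.05. CPM was scaled by TMM over all 9 libraries. SE is the log2 fold change over the square root of F. Replicates of a group differed by 5.90 to 60.4 times sampling variance (chi-square per degree of freedom), so none repeated another. An exact permutation test of 3 against 3 libraries has a smallest p of 0.1, and single genes were therefore tested only in fits across all genes. The labels name no batch.

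The 9 genes, the 4 pathway lists and the 8 marker lists were chosen with earlier results of these data known. From each pathway list were named all called genes, the 4 with the largest difference in Gata4 KD and the 2 in Tbx20 KD against control (mean of at least 5 CPM), and the 2 highest per length in control. One item that this rule names is not reported here. Likeness is Pearson's r of log2 CPM (prior count 2), with the same minimum of 5 CPM. Alternatives were library size scaling, other filters, DESeq2 1.42.0, limma-voom (limma 3.58.1), a fit of all 9 libraries, replicate blocks and leaving out each library. The fit was tested on simulated data.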

Additional observations from a re-analysis of the deposited data

How the results depend on the processing

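Lrrc32 kept its direction in all 3 comparisons under every alternative run, with 0.87 to 0.89 in Gata4 KD against control outside the fits that left out a library. Where Gata4 KD libraries enter, this is a description, since they chose the set. In Tbx20 KD against control Lrrc32 passed the test in no fit (lowest adjusted p 0.3054, edgeR without control b). Library size scaling gave 1 called of the 9 genes between the knockdowns, in place of 2, and 1 pathway gene in Gata4 KD against control. Without a filter, 121, 2 and 324 genes were called in Gata4 KD against control, Tbx20 KD against control and Gata4 KD against Tbx20 KD, in place of 55, 1 and 208, with 1 pathway gene in the first and 7 in the last. A filter of CPM above 1 in 2 libraries gave 5 pathway genes in the last. DESeq2 called 273, 10 and 761 genes, with 5 pathway genes in the first and 13 in the last. With all 9 libraries in one fit, 148 genes and 1 pathway gene were called in the first, and 1 of the 9 genes and 5 pathway genes in the last.

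Leaving out 1 library at a time gave 6 to 189 genes, 0 to 1 of the 9 genes and 0 to 2 pathway genes in Gata4 KD against control, where the lowest and highest counts came without control a and control b. Counts of the 9 genes include Lrrc32 and are descriptions where Gata4 KD libraries enter. It gave 1 to 5 genes in Tbx20 KD against control. Between the knockdowns it gave 22 to 801 genes, without Gata4 KD a and c respectively, 0 to 3 of the 9 genes and 0 to 17 pathway genes. Values near 0 changed sign. In Gata4 KD against control the ranges were -0.13 to 0.020 for Tgfb1, -0.077 to 0.24 for Tgfb2, -0.077 to 0.027 for Ltbp1 and -0.28 to 0.39 for Ltbp2. In Tbx20 KD against control the ranges were -0.15 to 0.11 for Tgfb2, -0.25 to 0.18 for Tgfbr1, -0.14 to 0.040 for Tgfbr3, -0.023 to 0.16 for Bambi, -0.031 to 0.11 for Cd109 and -0.073 to 0.35 for Dcn. Between the knockdowns they were -0.058 to 0.27 for Tgfb2, -0.59 to 0.11 for Ltbp2 and -0.045 to 0.17 for Tgfbr2. The cause was not tested.

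The labels do not say whether the replicate letters pair the libraries, and deviations within groups of 3 cannot decide it. The correlation of same-letter deviations was -0.17 to 0.103 between control and Gata4 KD, -0.0228 to 0.231 between control and Tbx20 KD, and -0.153 to 0.255 between the knockdowns. Not every library correlated best with its own letter. With the replicate block, 5, 2 and 101 genes were called, 0 of the 9 genes in each comparison, and the adjusted p between the knockdowns was 0.0799 for Tgfbr1, 0.0611 for Bambi and 0.0449 for Cd109. Precision was limited with 3 libraries a group, and the effect of depth was not tested.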
